A study of Mus musculus with 4 samples.

Results

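Genes of insulin signaling and glucose uptake, chosen by name, were followed across the 4 RNA-seq libraries of mouse gastrocnemius muscle, a calf muscle composed mainly of fast fibers. They were Insr, Irs1, Irs2, Pik3ca, Akt1, Akt2, Slc2a4, Tbc1d4, and Tbc1d1, 9 of the 22252 gene names in the count files, and all 9 passed the filter on low counts (a count above 0 in all 4 libraries and a mean of at least 50). The mice were males of the C57BL/6J strain, 7 weeks old, and all 4 groups carried the floxed allele of Nr3c1, the gene of the glucocorticoid receptor (GR), on both chromosomes. Lean GRf/f mice had no Cre and were Lep+/+. Lean GRmKO mice carried 1 copy of Cre and were Lep+/+. The ob/ob GRf/f and ob/ob GRmKO groups had the same GR genotypes and were homozygous for Lepob, which removes leptin and makes mice overeat and become obese. Cre was driven by Acta1, so deletion of the floxed exon was confined by design to muscle fibers, and other cells of the muscle kept the receptor. Each group is 1 library, made from RNA pooled over 3 mice. No difference between groups could therefore be tested against the variation between mice, and no P value is given. Each comparison instead used a fold rule, a difference of at least 1.5-fold (0.585 on the log2 scale) in CPM (counts scaled so that every library has the same total), beside the share of all 11141 genes tested that passed the same rule. Intervals given with CPM, ratios, and log2 changes are 95% intervals of counting error only, and they hold neither the variation between mice nor that of library preparation.

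Insulin binds its receptor on the muscle fiber, and the receptor, a tyrosine kinase, phosphorylates the insulin receptor substrates IRS1 and IRS2. These recruit PI3-kinase, which activates AKT, and AKT phosphorylates TBC1D4 (AS160) and TBC1D1, Rab GTPase-activating proteins that otherwise hold vesicles carrying the glucose transporter GLUT4 (Slc2a4) inside the cell. Skeletal muscle takes up a large part of the glucose cleared after a meal by this route, and contraction reaches TBC1D1 and GLUT4 through AMPK. Most steps of the pathway are switched by phosphorylation and by movement of proteins, neither of which is measured by RNA-seq, so the values describe the supply of transcripts and not the activity of the pathway.

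Promoters are shown for the adaptors Irs1 and Irs2, whose relative abundance differed between the libraries, and for Tbc1d1, the gene whose level varied most. They are RefSeq windows on GRCm38.p6 of 250 bases before to 50 bases after an annotated start, printed 5′ to 3′ on the strand of the gene. A window was found for 7 of the 9 genes, and none for Insr and Slc2a4. Tbc1d1 has a second window, chr5:64230107-64230406, which is not printed. Capitals mark GTCACGTGTT in the first 2 windows, which is the longest run of letters that these windows share and was found by comparing them, and TGTTCT, the reverse strand of AGAACA, in the third.
Irs1, chr1:82291390-82291689, minus strand: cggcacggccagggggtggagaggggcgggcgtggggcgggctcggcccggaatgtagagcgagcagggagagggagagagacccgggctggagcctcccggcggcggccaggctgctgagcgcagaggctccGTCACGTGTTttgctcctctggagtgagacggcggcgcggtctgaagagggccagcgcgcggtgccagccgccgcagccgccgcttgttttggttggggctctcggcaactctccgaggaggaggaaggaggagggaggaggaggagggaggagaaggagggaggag
Irs2, chr8:11008880-11009179, minus strand: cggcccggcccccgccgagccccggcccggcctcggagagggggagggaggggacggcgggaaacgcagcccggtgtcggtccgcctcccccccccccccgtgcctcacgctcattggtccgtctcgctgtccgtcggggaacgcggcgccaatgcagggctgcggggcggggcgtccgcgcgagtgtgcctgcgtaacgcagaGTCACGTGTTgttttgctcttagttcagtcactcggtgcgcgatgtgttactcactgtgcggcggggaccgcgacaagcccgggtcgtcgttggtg
Tbc1d1, chr5:64160010-64160309, plus strand: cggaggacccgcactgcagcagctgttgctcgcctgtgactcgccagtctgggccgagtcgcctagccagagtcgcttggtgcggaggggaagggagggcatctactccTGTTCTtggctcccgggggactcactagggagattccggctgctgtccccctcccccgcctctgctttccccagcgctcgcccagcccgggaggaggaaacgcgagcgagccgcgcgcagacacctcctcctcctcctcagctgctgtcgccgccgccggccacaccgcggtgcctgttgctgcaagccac
The shared run began 117 bases before the annotated start of Irs1 and 46 bases before that of Irs2. These starts lie 23 and 471 bases from those of the transcripts listed in the count files. On either strand, 24 of 32817 RefSeq windows (0.0731%) held the run. The run was chosen for being in both windows, and how often 2 windows share so long a run was not computed. It contains the E-box CACGTG, a 6-letter word that reads the same on both strands and was present in 7.15% of the windows. Among the windows of the 9 genes, only these 2 held the E-box. In Irs1, the CRE half-site TGACG, read on the reverse strand, overlapped the E-box (20.8% of windows held this half-site). The annotated start in the printed Tbc1d1 window lies 809 bases from that of the transcript listed in the count files. The glucocorticoid half-site AGAACA was present 141 bases before the annotated start in this window, and was absent from the second window of Tbc1d1. It was also present 214 bases before an annotated start of Tbc1d4, which lies 101865 bases from the start of the transcript listed in the count files, and in 19.0% of all windows. The full palindrome of 2 such half-sites, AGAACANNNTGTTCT, was in none of the windows of the 9 genes and in 0.00914% of all windows. The FoxO word TGTTTAC was found once, 161 bases before a start of Akt1 (3.65% of windows), and the GC box GGGCGG was in 35.6% of windows. These are matches of letters on either strand within short windows, and binding was not measured.

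Library totals were 19897754 to 20959781 expected counts, and 3 counts corresponded to between 0.143 and 0.151 CPM. Between 45.1% and 48.1% of each total came from the 50 genes with the highest mean CPM over the 4 libraries. Nr3c1 was at 125 CPM in lean GRf/f, 67.0 in lean GRmKO, 102 in ob/ob GRf/f, and 39.1 in ob/ob GRmKO muscle, so both libraries labeled GRmKO were below both labeled GRf/f. All 5 fiber genes checked as muscle markers (Ckm, Acta1, Mylpf, Tnnt3, and Mb) were detected, with a summed level between 70808 and 72460 CPM, and none passed 1.5-fold in any comparison. The groups differed in other markers. The slow-fiber list, 9 genes such as Myh7 and Tnni1, summed to 519 CPM in lean GRf/f, 692 in lean GRmKO, 1152 in ob/ob GRf/f, and 1646 in ob/ob GRmKO muscle. All 9 genes were higher by at least 1.5-fold in both obesity comparisons, against 1.95% of all genes. Myh2, the myosin of type IIa fibers, was at 662, 508, 1403, and 1722 CPM in the same order. The adipocyte list of 8 genes summed to 1000, 650, 579, and 360 CPM, the endothelial list of 6 genes to 470, 545, 371, and 329 CPM, and the macrophage list of 6 genes to 389, 504, 260, and 189 CPM. In RNA of whole muscle, fewer cells of a type and less RNA per cell cannot be told apart. With CPM, the median gene lay at -0.11 and -0.20 on the log2 scale in the obesity comparisons of GRf/f and GRmKO mice and at 0.04 and -0.04 in the genotype comparisons of lean and ob/ob mice. For some of the genes, changes relative to the median gene are also given.

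**Figure D1:**
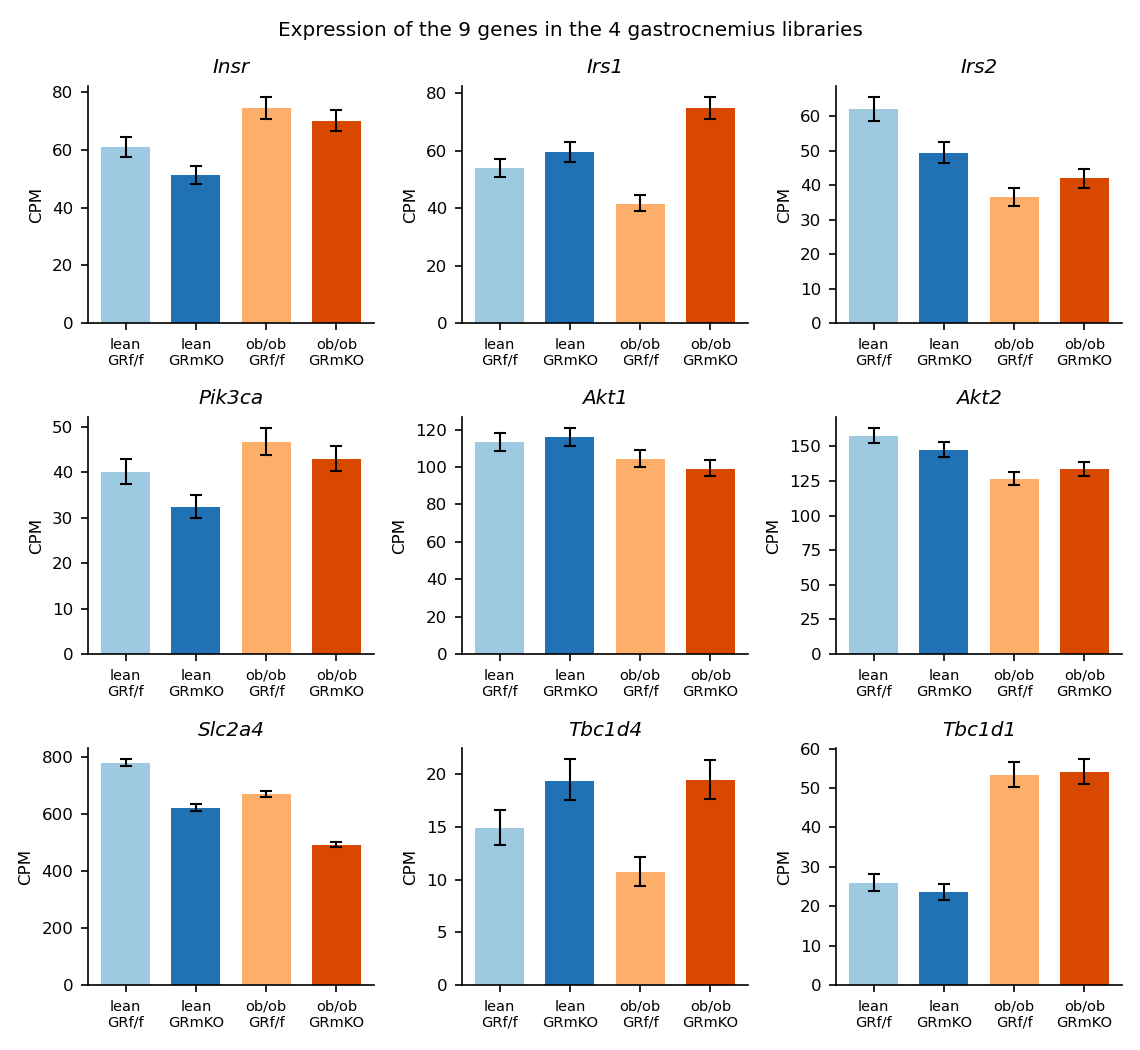
Level of each of the 9 genes in CPM (vertical axes, from 0) in the 4 pooled libraries, with 95% Wilson intervals of counting error as bars. Both ob/ob libraries held about 53 to 54 CPM of Tbc1d1 and both lean libraries 23.5 to 26.0 CPM, and Slc2a4 was lowest in ob/ob GRmKO muscle.

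Slc2a4 was by far the most abundant of the 9 transcripts, and levels between genes are compared here per kilobase of the listed transcript. Slc2a4 averaged 254 CPM per kilobase over the 4 libraries (195 to 308). Akt2 (48.3, range 43.3 to 53.9) and Akt1 (40.2, range 36.9 to 43.1) followed, and their order turned when the longest coding transcript of each gene was used (31.1 for Akt2 and 40.2 for Akt1). Irs2, Insr, Irs1, Tbc1d1, and Pik3ca lay close together at 7.50, 6.85, 6.28, 6.06, and 6.05 CPM per kilobase, and the ranges of these neighbors over the 4 libraries overlapped, so their order is not fixed by the data. Tbc1d4 was the lowest at 3.19 (2.12 to 3.85), which overlapped the range of Tbc1d1. Tbc1d1 ranked 8 and 9 of 9 in the lean libraries and 4 in both ob/ob libraries, whereas Irs2 ranked 4 in both lean and 7 in both ob/ob libraries. Over the 4 libraries, the highest level of a gene divided by the lowest was 2.30 for Tbc1d1, 1.81 for Tbc1d4, 1.80 for Irs1, 1.70 for Irs2, 1.58 for Slc2a4, 1.45 for Insr, and 1.44 for Pik3ca, and it was smaller for Akt2 and smallest for Akt1 (1.17). A range as wide as that of Tbc1d1 was seen in 9.86% of all genes tested, and one as wide as that of Akt1 in 86.2%. The median range was 0.66 on the log2 scale for the 9 genes and 0.51 for all genes.

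The comparison of ob/ob with lean muscle addresses how leptin-deficient obesity alters the supply of these transcripts, in the presence or absence of muscle GR. In GRf/f mice, 2 of the 9 genes passed 1.5-fold, with Tbc1d1 higher and Irs2 lower, and 16.5% of all genes did so (5.1% higher and 11.4% lower). In GRmKO mice, 1 of the 9 passed, again Tbc1d1, and 24.5% of all genes did so (4.79% higher and 19.7% lower). The median log2 change of the 9 genes was -0.22 in GRf/f and 0.00 in GRmKO mice. Insr, Pik3ca, and Tbc1d1 were higher in both ob/ob libraries than in both lean libraries, and Irs2, Akt1, and Akt2 were lower in both. Such a separation, for which no minimum size was set, was found in 58.9% of all genes (15.4% higher and 43.5% lower), so 6 of 9 is near the background. The split of all genes past 1.5-fold depended on scaling. With edgeR's TMM factors, it was 7.54% higher and 7.95% lower in GRf/f mice and 9.51% higher and 11.5% lower in GRmKO mice. The 2 obesity comparisons share no library with each other, nor do the 2 genotype comparisons, but each obesity comparison shares 1 library with each genotype comparison.

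GR deletion was compared within lean and within ob/ob mice, to ask which of the transcripts differ when the fibers lack GR. In lean mice, 0 of the 9 genes passed 1.5-fold between GRmKO and GRf/f muscle, and 8.47% of all genes did so (4.88% higher and 3.59% lower). In ob/ob mice, 2 of the 9 passed, Irs1 and Tbc1d4, both higher in GRmKO, where 12.5% of all genes passed (4.41% higher and 8.11% lower). The median log2 change of the 9 genes was -0.14 in lean and 0.02 in ob/ob mice. Irs1 and Tbc1d4 were higher in both GRmKO libraries than in both GRf/f libraries and Slc2a4 was lower in both, a separation found in 24% of all genes (13.1% higher and 10.9% lower).

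**Figure D2:**
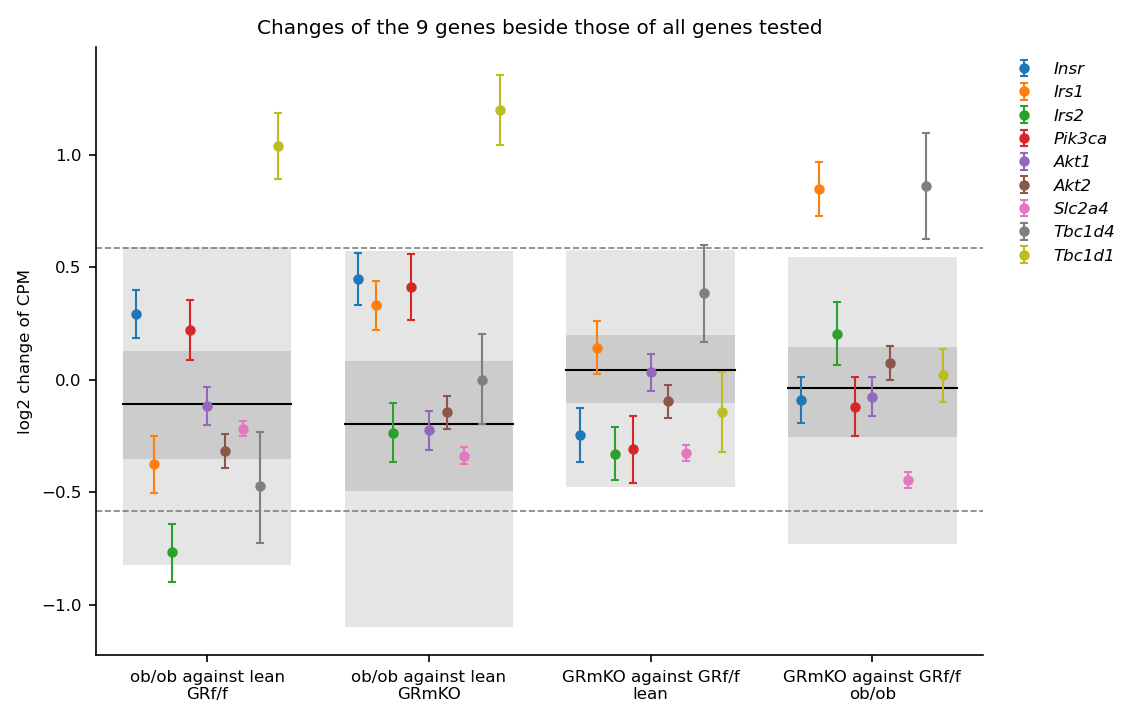
Log2 change of CPM (vertical axis) of the 9 genes, in colors, in the 4 comparisons (horizontal axis), with 95% counting intervals. Behind them, light and dark grey boxes span the 5th to 95th and the 25th to 75th percentiles of all genes tested, black lines are medians, and dashed lines mark 1.5-fold. Tbc1d1 lies above the upper dashed line in both obesity comparisons, Irs2 below the lower line in GRf/f mice, and Irs1 and Tbc1d4 above the upper line between the ob/ob groups.

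The insulin receptor gene Insr (ENSMUSG00000005534.10, chromosome 8 of GRCm38, 3122061 to 3279617, minus strand, 21 exons) was at 60.8 CPM in lean GRf/f, 51.2 in lean GRmKO, 74.4 in ob/ob GRf/f, and 69.9 in ob/ob GRmKO muscle. Both ob/ob libraries were above both lean libraries, and within each background GRmKO was the lower. The obesity change was 0.29 on the log2 scale in GRf/f mice (0.18 to 0.40) and 0.45 in GRmKO mice (0.33 to 0.56), neither of which reached 1.5-fold. Relative to the median gene, these were 0.40 and 0.64. In GRmKO mice, Insr passed 1.5-fold with TMM factors (0.65), DESeq2 size factors (0.66), and upper quartile factors (0.59). With library sizes without the top 50 genes (0.53), it did not. Between genotypes, Insr was at -0.25 in lean mice (-0.37 to -0.13) and -0.09 in ob/ob mice (-0.19 to 0.01).

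Irs1 (ENSMUSG00000055980.2, chromosome 1, 82233101 to 82291416, minus strand, 2 exons) encodes a main adaptor of the receptor in muscle. It was at 53.9 CPM in lean GRf/f (50.8 to 57.2), 59.4 in lean GRmKO (56.2 to 62.9), 41.6 in ob/ob GRf/f (38.9 to 44.4), and 74.7 in ob/ob GRmKO muscle (71.1 to 78.5). The lowest and the highest of the 4 libraries were thus the 2 ob/ob libraries, with the lean libraries between them. Irs1 was 1.80-fold higher in ob/ob GRmKO than in ob/ob GRf/f muscle, a log2 change of 0.85 (0.73 to 0.97) that 5.55% of all genes equaled or exceeded in either direction. In lean mice, the same contrast gave 0.14 (0.02 to 0.26). The obesity change was -0.37 (-0.50 to -0.25) in GRf/f and 0.33 (0.22 to 0.44) in GRmKO mice. The difference of these changes, GRmKO minus GRf/f, was 0.71 (counting interval, 0.54 to 0.87), and 12.8% of all genes differed at least as much. With other scaling factors, the obesity changes of Irs1 reached -0.26 in GRf/f and 0.54 in GRmKO mice, the latter outside its counting interval. A coding gene, Gm9747, overlaps Irs1 on the opposite strand, and whether quantification used strand is not given in the sources used here.

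Irs2 (ENSMUSG00000038894.7, chromosome 8, 10984681 to 11008458, minus strand, 2 exons), the second adaptor, was at 62.0 CPM in lean GRf/f (58.7 to 65.5), 49.4 in lean GRmKO (46.4 to 52.6), 36.4 in ob/ob GRf/f (33.9 to 39.1), and 42.0 in ob/ob GRmKO muscle (39.3 to 44.8). Both ob/ob libraries were below both lean libraries. In GRf/f mice, Irs2 fell with obesity by 0.77 on the log2 scale (interval of the change, -0.90 to -0.64), and 9.33% of all genes changed at least as much. Relative to the median gene, the change was -0.66. In GRmKO mice, the obesity change was -0.23 (-0.37 to -0.10), close to that of the median gene. GRmKO against GRf/f gave -0.33 (-0.45 to -0.21) in lean and 0.20 (0.07 to 0.34) in ob/ob mice. The difference between the 2 obesity changes was 0.53 (0.35 to 0.72), and 21% of all genes differed at least as much. Macrophages and endothelial cells also express Irs2, and the summed lists of both were lower in the ob/ob libraries, as given above. Between genotypes, both lists were higher in lean GRmKO and lower in ob/ob GRmKO than in the matching GRf/f library, the reverse of Irs2. The part of these cells in the change of Irs2 was not tested.

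The ratio of the adaptors can be read within 1 library and does not depend on scaling between libraries. Irs2 counts divided by Irs1 counts gave 1.15 (lower bound 1.06) in lean GRf/f, 0.831 (0.764 to 0.904) in lean GRmKO, 0.876 (0.795 to 0.965) in ob/ob GRf/f, and 0.562 (0.517 to 0.610) in ob/ob GRmKO muscle. By counts, Irs2 exceeded Irs1 in lean GRf/f muscle alone. Per length of the listed transcripts, the ratio was 1.66, 1.20, 1.27, and 0.812 in the same order, so Irs2 was then the lower in ob/ob GRmKO muscle alone. On both scales, the ratio was lowest where obesity and GR deletion were combined. The intervals of lean GRmKO and ob/ob GRf/f muscle overlapped, and the other intervals did not overlap with each other.

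**Figure D3:**
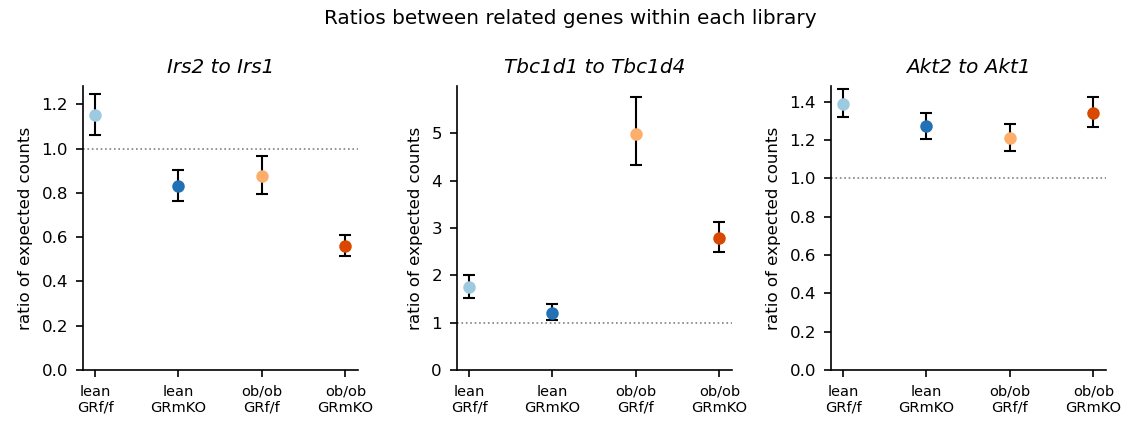
Ratio of expected counts between related genes (vertical axes, from 0) within each of the 4 libraries, with 95% counting intervals, and a dotted line at a ratio of 1. Irs2 to Irs1 was highest in lean GRf/f and lowest in ob/ob GRmKO muscle, Tbc1d1 to Tbc1d4 was highest in ob/ob GRf/f muscle, and Akt2 to Akt1 stayed between 1.21 and 1.39.

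Pik3ca (ENSMUSG00000027665.13, chromosome 3, 32397671 to 32468486, plus strand, 21 exons) encodes the catalytic subunit p110 alpha of PI3-kinase. It was at 40.0 CPM in lean GRf/f, 32.3 in lean GRmKO, 46.6 in ob/ob GRf/f, and 42.9 in ob/ob GRmKO muscle. As for Insr, both ob/ob libraries were above both lean libraries, and GRmKO was the lower in each background. The obesity change was 0.22 (0.09 to 0.35) in GRf/f and 0.41 (0.26 to 0.56) in GRmKO mice, the latter 0.61 relative to the median gene and at most 0.62, past 1.5-fold, with other scaling factors. GRmKO against GRf/f gave -0.31 (-0.46 to -0.16) among lean and -0.12 (-0.25 to 0.01) among ob/ob mice.

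The kinases Akt1 and Akt2 varied least of the 9 genes. Akt1 (ENSMUSG00000001729.14, chromosome 12, 112653821 to 112674884, minus strand, 14 exons), the broadly expressed form, was at 113, 116, 104, and 99.2 CPM in lean GRf/f, lean GRmKO, ob/ob GRf/f, and ob/ob GRmKO muscle. Its log2 changes lay between -0.23 and 0.03, and that of lean GRmKO against lean GRf/f mice changed sign with scaling (from 0.03 to -0.02). Akt2 (ENSMUSG00000004056.15, chromosome 7, 27591552 to 27640826, plus strand, 14 exons), the form tied most closely to glucose uptake, was at 158, 147, 127, and 133 CPM in the same order. By CPM, both genes were lower in both ob/ob libraries, but relative to the median gene the obesity changes of Akt1 were -0.01 in GRf/f and -0.03 in GRmKO mice. For Akt2 the obesity change was -0.32 (-0.39 to -0.24) in GRf/f mice and -0.14 (-0.22 to -0.07) in GRmKO mice, and the latter changed sign with scaling (to 0.07). The ratio of Akt2 to Akt1 counts was 1.39, 1.27, 1.21, and 1.34. The listed transcripts of the 2 genes share 3 words of 31 bases, about 0.1% of each, so few reads would match both genes.

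Tbc1d1 (ENSMUSG00000029174.18, chromosome 5, 64156305 to 64351486, plus strand, 22 exons), the Rab GTPase-activating protein that receives signals from both AKT and AMPK, showed the largest change of the 9 genes. Its level was 26.0 CPM in lean GRf/f (23.9 to 28.3), 23.5 in lean GRmKO (21.5 to 25.7), 53.3 in ob/ob GRf/f (50.3 to 56.6), and 54.0 in ob/ob GRmKO muscle (51.0 to 57.3). The 2 lean libraries were alike, as were the 2 ob/ob libraries, far above the lean level. In GRf/f mice, Tbc1d1 rose 2.05-fold with obesity, a log2 change of 1.04 (0.89 to 1.19), and 4.11% of all genes changed at least as much. In GRmKO mice, it rose 2.30-fold, a log2 change of 1.20 (1.04 to 1.36), and 4.75% of all genes changed at least as much. It passed 2-fold in both, where 4.6% and 8.19% of all genes did so. A rise of at least 1.5-fold in both obesity comparisons was found in 1.95% of all genes. Between the scalings, the changes ranged from 1.04 to 1.16 and from 1.20 to 1.41. GRmKO against GRf/f gave -0.14 (-0.32 to 0.04) in lean and 0.02 (-0.10 to 0.14) in ob/ob mice. The difference between the obesity changes of the 2 genotypes was 0.16, and its interval (-0.05 to 0.38) included 0.

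Tbc1d4 (ENSMUSG00000033083.16, chromosome 14, 101442360 to 101609191, minus strand, 19 exons), the paralog AS160, was the least abundant of the 9 genes, and its intervals are the widest. It was at 14.9 CPM in lean GRf/f (13.3 to 16.6), 19.4 in lean GRmKO (17.6 to 21.4), 10.7 in ob/ob GRf/f (9.38 to 12.2), and 19.4 in ob/ob GRmKO muscle (17.6 to 21.4). Both GRmKO libraries were above both GRf/f libraries and alike in level, and ob/ob GRf/f was the lowest. Tbc1d4 was 1.81-fold higher in ob/ob GRmKO than in ob/ob GRf/f muscle, a log2 change of 0.86 (0.63 to 1.10) that 5.3% of all genes equaled or exceeded. In lean mice, the change was 0.38 (0.17 to 0.60). The obesity change was -0.47 (-0.73 to -0.23) in GRf/f and 0.00 (-0.20 to 0.20) in GRmKO mice, a difference of 0.47 (0.16 to 0.79) that 24.6% of all genes equaled or exceeded. With other scaling factors, the obesity changes of Tbc1d4 reached -0.36 in GRf/f and 0.22 in GRmKO mice, the latter outside its counting interval. Of the paralogs, Tbc1d1 passed 1.5-fold with obesity and Tbc1d4 with genotype among ob/ob mice. Their ratio of counts was 1.75 (1.52 to 2.01) in lean GRf/f, 1.21 (1.06 to 1.39) in lean GRmKO, 4.98 (4.32 to 5.76) in ob/ob GRf/f, and 2.78 (2.48 to 3.11) in ob/ob GRmKO muscle. None of these 4 intervals overlapped another.

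Slc2a4 (ENSMUSG00000018566.14, chromosome 11, 69942539 to 69948188, minus strand, 11 exons), which encodes the insulin-responsive transporter GLUT4, was at 778 CPM in lean GRf/f (766 to 790), 621 in lean GRmKO (610 to 632), 669 in ob/ob GRf/f (658 to 680), and 492 in ob/ob GRmKO muscle (482 to 501). GRmKO was the lower in each background and ob/ob the lower in each genotype, so the level was lowest where the 2 were combined. GRmKO against GRf/f gave -0.33 (-0.36 to -0.29) among lean and -0.44 (-0.48 to -0.41) among ob/ob mice, and 23% and 20.5% of all genes changed at least as much. The obesity change was -0.22 (-0.25 to -0.19) in GRf/f and -0.34 (-0.37 to -0.30) in GRmKO mice, and -0.11 and -0.14 relative to the median gene. None of the 4 changes reached 1.5-fold, and all kept their sign under every scaling. From lean GRf/f to ob/ob GRmKO muscle, the levels differed 1.58-fold. Adipocytes also express Slc2a4, and the summed adipocyte list was ordered in part as Slc2a4, highest in lean GRf/f (1000 CPM) and lowest in ob/ob GRmKO muscle (360 CPM). Of its 8 genes, 6 in lean and 5 in ob/ob mice were lower by at least 1.5-fold in GRmKO, against 3.59% and 8.11% of all genes. With obesity in GRf/f mice, Lep and Pparg were higher by at least 1.5-fold, and Fabp4, Cfd, and Retn were lower (5.1% and 11.4% of all genes). In GRmKO mice, Lep was higher, and Fabp4, Cfd, and Retn were again lower (4.79% and 19.7% of all genes). The part of these cells in the change of Slc2a4 was not tested.

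The fiber markers moved with obesity as did Tbc1d1. Relative to lean GRf/f muscle, Tbc1d1 was at 1.04 and 1.06 on the log2 scale in ob/ob GRf/f and ob/ob GRmKO muscle, the slow-fiber list at 1.15 and 1.67, and Myh2 at 1.08 and 1.38. In lean GRmKO muscle the 3 differed, with Tbc1d1 at -0.14, the slow-fiber list at 0.42, and Myh2 at -0.38. The list of type IIb fibers lay between -0.05 and 0.30 in the 3 libraries. Whether fiber composition has a part in the change of Tbc1d1 was not tested. The 5 genes whose pattern over the 4 libraries was nearest to that of Tbc1d1, by the root mean squared difference of centered log2 CPM, were Zim1 (0.040), Homer2 (0.060), Ap2a1 (0.065), Gm37240 (0.067), and Flnc (0.069). Flnc, which encodes the muscle cross-linking protein filamin C, was at 393, 374, 922, and 871 CPM in lean GRf/f, lean GRmKO, ob/ob GRf/f, and ob/ob GRmKO muscle. Homer2, a scaffold protein gene, was at 15.4, 14.4, 30.2, and 29.6 CPM. With 4 libraries, a close pattern is a description only.

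**Figure D4:**
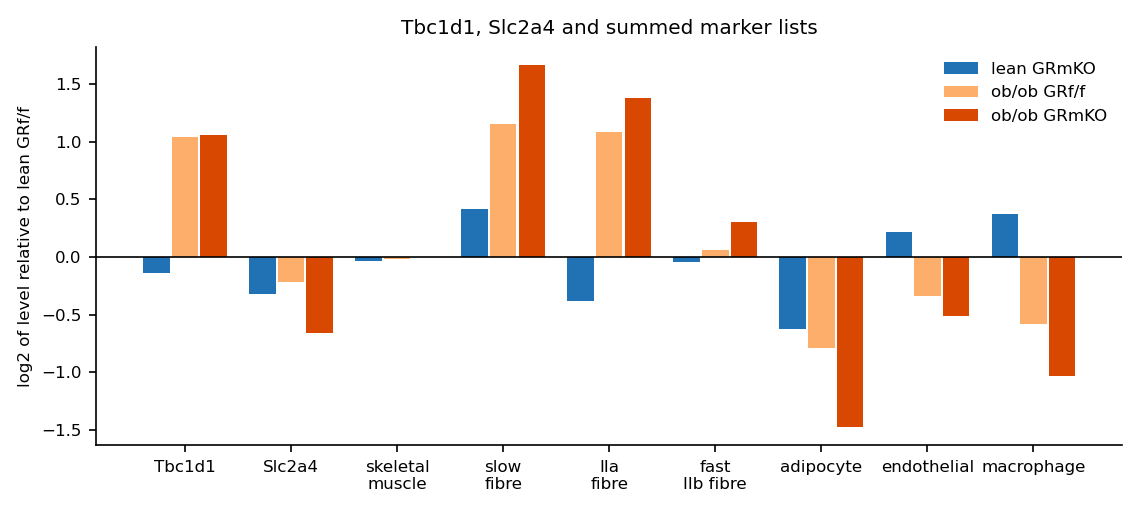
Log2 of the level in lean GRmKO, ob/ob GRf/f, and ob/ob GRmKO muscle relative to lean GRf/f muscle (vertical axis), for the CPM of Tbc1d1 and Slc2a4 and the summed CPM of 7 marker lists (horizontal axis), each bar being 1 library. Tbc1d1 and the slow and IIa fiber lists were higher in both ob/ob libraries, the skeletal muscle list lay near 0, and Slc2a4 and the adipocyte list were lowest in ob/ob GRmKO muscle.

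The wider pathway was described with 97 other genes in 8 lists, of which 94 passed the filter. In the obesity comparison of GRf/f mice, 4 were higher and 7 lower by at least 1.5-fold (11.7%, against 16.5% of all genes). In GRmKO mice, 3 were higher and 10 lower (13.8%, against 24.5%). In the genotype comparison, 7 were higher and 1 lower in lean mice (8.51%, against 8.47%), and 8 were higher and 7 lower in ob/ob mice (16%, against 12.5%). The split between higher and lower turned with scaling in the obesity comparisons. In GRf/f mice, it was 10 higher and 3 lower with TMM factors, 12 and 3 with DESeq2 size factors, 8 and 3 with upper quartile factors, and 5 and 4 with library sizes without the top 50 genes. In GRmKO mice, it was 15 and 5, 16 and 4, 11 and 6, and 9 and 7 in the same order. The median log2 change of the pathway genes lay between -0.04 and 0.01 with CPM. On the same scale, in both obesity comparisons, Enpp1, Rab8a, and Exoc7 were lower and none was higher, against 6.67% and 1.95% of all genes. Relative to the median gene, none of these 3 passed 1.5-fold in both GRf/f and GRmKO mice. Enpp1 was then at -0.67 and -0.47, Rab8a at -0.51 and -0.40, and Exoc7 at -0.50 and -0.64. In both genotype comparisons, Pak1 and Myod1 were higher in GRmKO and Slc2a3 was lower, against 1.03% and 1.35% of all genes. Myod1 in lean mice was at 0.58 relative to the median gene, just short of 1.5-fold.

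Around the receptor, Shc1, an adaptor to the Ras pathway, was at 20.6, 28.2, 13.5, and 29.2 CPM in lean GRf/f, lean GRmKO, ob/ob GRf/f, and ob/ob GRmKO muscle, the order of libraries used in the rest of the text. Like Irs1, it was lowest in ob/ob GRf/f and highest in ob/ob GRmKO muscle, 2.16-fold apart. Of 12 genes that restrain the receptor, Enpp1, which binds and inhibits it, was at 8.04, 8.06, 4.69, and 5.06 CPM. By CPM, Enpp1 fell with obesity in both genotypes (log2 changes, -0.78 and -0.67). Grb14, an adaptor that blocks the kinase, was 1.72-fold higher in ob/ob GRmKO than in ob/ob GRf/f muscle (26.9 and 15.6 CPM). Socs1, which targets the receptor pathway for inhibition, was at 2.36, 3.82, 2.43, and 2.28 CPM, a level with few counts behind it. Sh2b1, which binds the receptor and promotes its signaling, was at 33.7, 37.2, 48.5, and 48.8 CPM. With CPM it passed 1.5-fold in no comparison, and its obesity change in GRf/f mice was 0.53.

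Among PI3-kinase genes, Pik3r1, the main regulatory subunit, was at 61.1, 45.4, 60.7, and 33.9 CPM. Both GRmKO libraries were below both GRf/f libraries, with a genotype change of -0.43 between the lean and -0.84 between the ob/ob groups, the latter past 1.5-fold. Pik3cd, a catalytic subunit best known from leukocytes, was at 5.42, 5.77, 6.17, and 11.3 CPM, highest in the library in which the macrophage list was lowest. Inpp5d, a phosphatase of blood cells, was at 3.47, 6.10, 5.48, and 6.33 CPM. Mlst8, a subunit of the mTOR complexes, was at 8.39, 13.1, 8.43, and 5.21 CPM. Trib3, an inhibitor of AKT, was at 1.78, 2.16, 4.15, and 2.19 CPM, and it rose 2.33-fold with obesity in GRf/f mice.

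Among transporters and hexokinases, Slc2a3, which encodes GLUT3, was at 7.62, 2.13, 5.77, and 1.11 CPM. Like Slc2a4, it was lower in both GRmKO libraries, with genotype changes of -1.84 (lean) and -2.38 (ob/ob), but at levels far below those of Slc2a4. Hk1 was at 22.4, 21.3, 15.2, and 14.3 CPM, and its obesity changes (-0.56 and -0.57) were just short of 1.5-fold. Slc2a10 was at 4.10, 5.38, 6.06, and 5.38 CPM. With CPM it passed 1.5-fold in no comparison, but its obesity change in GRf/f mice (0.56) was just short of it. In vesicle traffic, Pak1, a kinase downstream of RAC1 in GLUT4 translocation, was at 29.1, 55.3, 16.0, and 66.0 CPM. It was 1.90-fold higher in lean and 4.14-fold higher in ob/ob GRmKO muscle, and fell with obesity in GRf/f mice (-0.86). Rab13, a small GTPase of vesicle traffic, was at 7.66, 8.14, 4.20, and 7.26 CPM, lowest in ob/ob GRf/f muscle. Exoc7, a subunit of the exocyst that tethers vesicles, was at 75.7, 97.1, 49.8, and 54.4 CPM. By CPM, Exoc7 fell with obesity in both genotypes (-0.60 and -0.83).

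Among AMPK subunits, Prkag3, the gamma 3 subunit typical of fast fibers, was at 155, 203, 129, and 267 CPM and was 2.06-fold higher in ob/ob GRmKO than in ob/ob GRf/f muscle. Prkab1 was at 9.02, 14.3, 6.48, and 9.16 CPM, and Prkag2 at 12.5, 9.55, 8.52, and 7.16 CPM. Of the regulators of the Slc2a4 gene, Myod1, a myogenic transcription factor, was at 30.7, 47.1, 20.8, and 39.6 CPM and was higher in GRmKO in both backgrounds (1.54-fold and 1.90-fold). Mef2c, a factor that binds the Slc2a4 promoter, was at 238, 232, 331, and 389 CPM and rose 1.67-fold with obesity in GRmKO mice. Nrf1 was at 9.54, 7.88, 6.17, and 6.79 CPM and fell with obesity in GRf/f mice (-0.63). Slc2a4 thus lay lower in both GRmKO libraries while Myod1 lay higher. Klf15, of the same list, lay lower in both, as did Slc2a4 (genotype changes, -0.33 in lean and -0.17 in ob/ob mice). Of the 10 regulators listed, 4 were above 0 in the genotype comparison of lean mice and 6 in that of ob/ob mice. The relation of these genes to Slc2a4 was not tested.

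**Figure D5:**
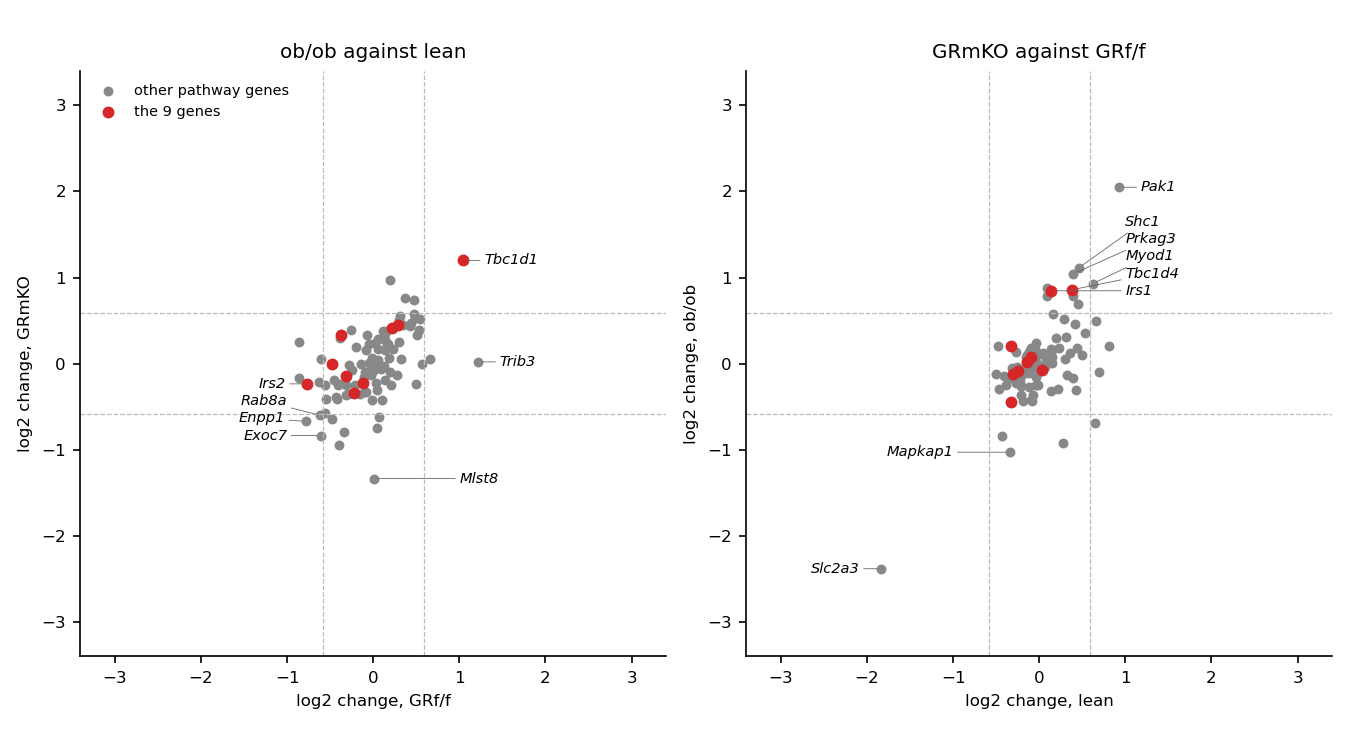
Log2 changes of CPM for other pathway genes (grey) and the 9 genes (red). Left, ob/ob against lean in GRf/f (horizontal axis) and GRmKO mice (vertical axis). Right, GRmKO against GRf/f in lean (horizontal axis) and ob/ob mice (vertical axis). Dashed lines mark 1.5-fold, and the 2 axes of a panel share no library. Tbc1d1 lies alone in the upper right region of the left panel, and Pak1 and Slc2a3 lie farthest from the center of the right panel.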

How the data were processed

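Gastrocnemius RNA of 3 mice was pooled per group and sequenced as 100-bp paired-end reads. The authors quantified protein-coding transcripts (GENCODE, mm10) with Salmon v1.2.1 and summed them to genes with tximport (lengthScaledTPM) in R v3.5.0. The deposited values are thus expected counts rebuilt from length-scaled abundances and not raw counts, 1 per library for each of 22252 gene names. They are not scaled to a common library total. Groups came from the genotype labels. Expected counts were divided by the library total (19897754 to 20959781) to give CPM, and rounded only for Wilson intervals (95%) and scaling factors. Ratio intervals came from the Wilson interval of 1 count in the sum of 2, and the interval of a difference of log2 changes from the 4 counts. All intervals cover counting error only, with the expected counts treated as counts.

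The study used NOISeq-sim, which simulates replicates. With 1 library per group it was replaced by a 1.5-fold rule among 11141 genes (mean of at least 50 and no library at 0), so no test was made. Alternatives were factors of edgeR 4.0.16 (TMM and upper quartile) and DESeq2 1.42.0 (R 4.3.3), library sizes without the 50 most abundant genes, other count minimums (none and 500), and fold thresholds of 2 and of 0.32 on the log2 scale. Fold calls and ratio intervals were run on counts simulated with known folds. These counts held counting error only, and no variation between mice or library preparation. Named were the 9 genes, Nr3c1, the 3 genes per pathway list with the largest change in any comparison (2 of these are not reported here or plotted, but are in the pathway counts), the 5 genes nearest in pattern to the member with the widest range, and marker lists by totals. Klf15, of the same list as Myod1, was named besides these for its direction beside Slc2a4. The 9 genes and all lists were chosen with earlier results of these data known. Positions, exons, and lengths are from GENCODE on GRCm38, and promoters from RefSeq. Python 3.11.15, pandas 2.3.3, scipy 1.17.1, and matplotlib 3.10.9 were used.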

Additional observations from a re-analysis of the deposited data

Results flagged for a closer look

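Of the 31 genes looked at (the 9 genes and the named pathway genes), 5 showed changes of opposite direction in the paired contrasts, with both counting intervals excluding 0. Irs1 and Irs2 were 2 of these 5. The named pathway genes had been picked for large changes, and the share of all genes with such opposite changes was not computed. The count of 5 therefore has no background, and the shares below are for the size of a difference only. With 1 library per group, no difference between the contrasts was tested. The obesity change of Irs1 was -0.37 on the log2 scale in GRf/f and 0.33 in GRmKO mice, a difference of 0.71 that 12.8% of all genes equaled or exceeded. The genotype change of Irs2 was -0.33 in lean and 0.20 in ob/ob mice, a difference of 0.53 (21% of genes). The obesity change of Pak1 was -0.86 in GRf/f and 0.26 in GRmKO mice, a difference of 1.12 (4.21% of genes), and that of Prkag3 was -0.26 and 0.39, a difference of 0.65 (15.3% of genes). The genotype change of Mlst8 was 0.65 in lean and -0.69 in ob/ob mice, a difference of -1.34 (2.61% of genes).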

How the results depend on the processing

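Of 36 log2 changes of the 9 genes, 34 kept their sign under the 4 other scalings. The exceptions were Akt1 between the lean groups and Akt2 with obesity in GRmKO mice. Of 144 values under these scalings, 102 lay within the counting interval of the CPM value. Of 64 counts of genes past the fold rule under alternatives, 41 were within 1.5 times the count given and 23 were not. For the 9 genes with obesity in GRmKO mice (1 gene with CPM), TMM and DESeq2 factors each gave 3 and upper quartile factors 2, the added genes being Insr and, with TMM and DESeq2 factors, Pik3ca. For the pathway genes in that comparison (13 with CPM), TMM and DESeq2 factors each gave 20, with 15 higher and 5 lower under TMM and 16 and 4 under DESeq2. A 2-fold threshold gave 1 of the 9 genes with obesity in GRf/f mice and 0 between the ob/ob groups (4.6% and 3.55% of all genes), and a threshold of 0.32 on the log2 scale gave 4 and 5 with obesity in GRf/f and GRmKO mice and 3 between the lean groups (40%, 49.9%, and 23.3% of all genes). For pathway genes, 2-fold gave 2, 2, 1, and 6 and the lower threshold gave 36, 40, 29, and 25 in the obesity comparisons of GRf/f and GRmKO mice and the genotype comparisons of lean and ob/ob mice. A minimum mean of 500 counts, under which fewer genes were tested, left 2, 3, 2, and 4 pathway genes in these comparisons, and 1 of the 9 genes between the ob/ob groups, since Tbc1d4 was not tested. No paired analysis was possible because each group has 1 library, and for the same reason no replicate could be left out. Depth limits Tbc1d4 most, with 224 to 407 counts per library, and Socs1, Trib3, and Slc2a3 among the pathway genes. At this depth, counting error of the other members was small beside a 1.5-fold change, whereas variation between mice is unknown.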

Other observations

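Red blood cell transcripts differed with obesity in these libraries. The erythroid list (2 alpha-globin and 2 beta-globin genes and Alas2, the first enzyme of heme synthesis in these cells) summed to 2228 CPM in lean GRf/f, 2126 in lean GRmKO, 970 in ob/ob GRf/f, and 872 in ob/ob GRmKO muscle. Of these, 5 of 5 genes were lower by at least 1.5-fold in both obesity comparisons, against 6.67% of all genes. Among fibroblast genes, Col1a1 was higher with obesity in both genotypes, while Pdgfra, Col3a1, Dcn, and Lum were lower in ob/ob than in lean GRmKO muscle. Alb, the albumin gene of liver, was the only 1 of 5 hepatocyte genes that passed the filter, and the list summed to 7.68, 15.0, 6.71, and 27.2 CPM. Satellite cell genes summed to 10.9, 15.0, 21.2, and 17.2 CPM, and Schwann cell genes to 340, 426, 480, and 417 CPM.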
